A study of Homo sapiens with 6 samples.

Results

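The NLRP1 inflammasome and its regulators were followed as 8 genes among the 60609 listed for each library. They are the sensors NLRP1 and CARD8, the dipeptidyl peptidases DPP8 and DPP9 that hold both sensors in check, the adaptor PYCARD (also called ASC), the protease CASP1, and the pore-forming gasdermins GSDMD and GSDME. The genes were taken by symbol, and NLRP1 was picked because its counts were nearly lost in the knockout, so its difference between the groups is given as a description with no test. The other 7 were taken for their roles. Counts were present for 5 of the 8 genes, and the same 5 passed the filter on low counts, NLRP1 through the wild-type libraries alone.

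RNA sequencing with an mRNA library kit was done in HEK293, a line of human embryonic kidney origin carrying adenovirus genes, with 3 STAT5B knockout libraries (KO) and 3 wild-type libraries (WT). STAT5B is a transcription factor activated by JAK kinases downstream of cytokine and growth hormone receptors. The knockout was made with CRISPR/Cas9, and clones mutated in both copies of STAT5B were picked by sequencing and protein blot, per the labels. Cells of both groups grew in DMEM with fetal bovine serum, with no treatment or time named in the labels, and some sample names carry the word Sham, which the labels do not explain. The protocol also mentions GS knockout clones without saying what they are. The protocol speaks of triplicates, but neither the number of KO clones nor separate flasks for each library are stated, so the spread behind every p-value may be technical. Traits that a picked clone had apart from its STAT5B mutation are confounded with genotype here and cannot be told apart from it.

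NLRP1 and CARD8 are receptors that cut themselves, and the C-terminal fragment stays bound to the rest of the protein. DPP8 and DPP9 bind the sensor and capture freed C-terminal fragments. When the N-terminal part is degraded by the proteasome, the freed fragment carries a CARD domain that assembles into a filament. NLRP1 then recruits caspase-1 through ASC, whereas CARD8 recruits caspase-1 directly. Caspase-1 cuts gasdermin D, which opens pores in the plasma membrane, and matures interleukin-1 beta and interleukin-18. Gasdermin E is a related pore-forming protein. NLRP1 is best known from keratinocytes and airway epithelium, CARD8 from T cells and monocytes, and HEK293 cells are a common host in which the pathway is rebuilt from plasmids.

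The 6 libraries held 17494958 to 21099813 estimated counts in KO and 17686407 to 20279181 in WT. Levels within a gene are given as CPM, counts scaled to 1000000 per library with TMM factors, and levels between genes as TPM, which also takes transcript length into account. A count of 0 allows up to 3 counts, or 0.144 to 0.171 CPM, in a library, for counting error only. STAT5B mRNA was 63.1, 61.8 and 60.5 CPM in KO, against 70.1, 64.6 and 69.4 CPM in WT. Its edgeR adjusted p was 0.0468, and the call ended in 11 of 15 alternative settings, so the mRNA level is a weak check of the genotype labels. Of 10 embryonic kidney and neural genes known in HEK293, 9 were tested, and PAX8 had 1 count in all 6 libraries together. Their summed level was 1060 to 1080 CPM in KO and 1240 to 1270 CPM in WT, but the genes did not move together. NEFM, a neurofilament, was lower at 198 ± 16.9 CPM in KO and 438 ± 16.5 CPM in WT (SD, n = 3 each). VIM, vimentin, was higher at 641 ± 13.6 CPM in KO and 591 ± 7.97 CPM in WT, and EYA1, a kidney developmental regulator, at 3.9 ± 1.09 CPM in KO and 1.78 ± 0.249 CPM in WT. SALL1, another kidney developmental regulator, was lower at 31.2 ± 1.43 CPM in KO and 36.0 ± 2.09 CPM in WT. Haematopoietic markers summed to 1.31 to 1.89 CPM in KO and 0.935 to 1.21 CPM in WT over 12 genes, with PTPRC, AIF1, TYROBP and CD3E at 0. Keratinocyte markers, 9 of 10 of which were matched by symbol, summed to 10.3 to 11.9 CPM in KO and 8.91 to 11.8 CPM in WT, most of it KRT10, with KRT14, KRT1, IVL, DSG3 and KRT6A at 0. Differentiated kidney markers summed to 55.2 to 60.1 CPM in KO and 60.9 to 63.2 CPM in WT, most of it LRP2, with UMOD, SLC34A1, SLC12A3 and AQP2 among those at 0. The part of these markers in the results was not tested.

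Within each group the 5 detected genes stood in a clear order of TPM. In KO it was DPP9 (43.6 to 48.1 TPM), DPP8 (21.3 to 22.7), CARD8 (16.6 to 19.7), GSDME (3.75 to 5.34) and NLRP1 (0 to 0.036). In WT it was DPP9 (50.9 to 55.9 TPM), DPP8 (23.4 to 26.0), CARD8 (17.9 to 20.8), NLRP1 (4.92 to 6.31) and GSDME (4.32 to 4.58). Neighbours in either order did not overlap in TPM within that group. NLRP1 stood above GSDME in WT and below it in KO, which follows from the choice of NLRP1 for its near loss. PYCARD, CASP1 and GSDMD were at 0 in all 6 libraries.

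**Figure D1:**
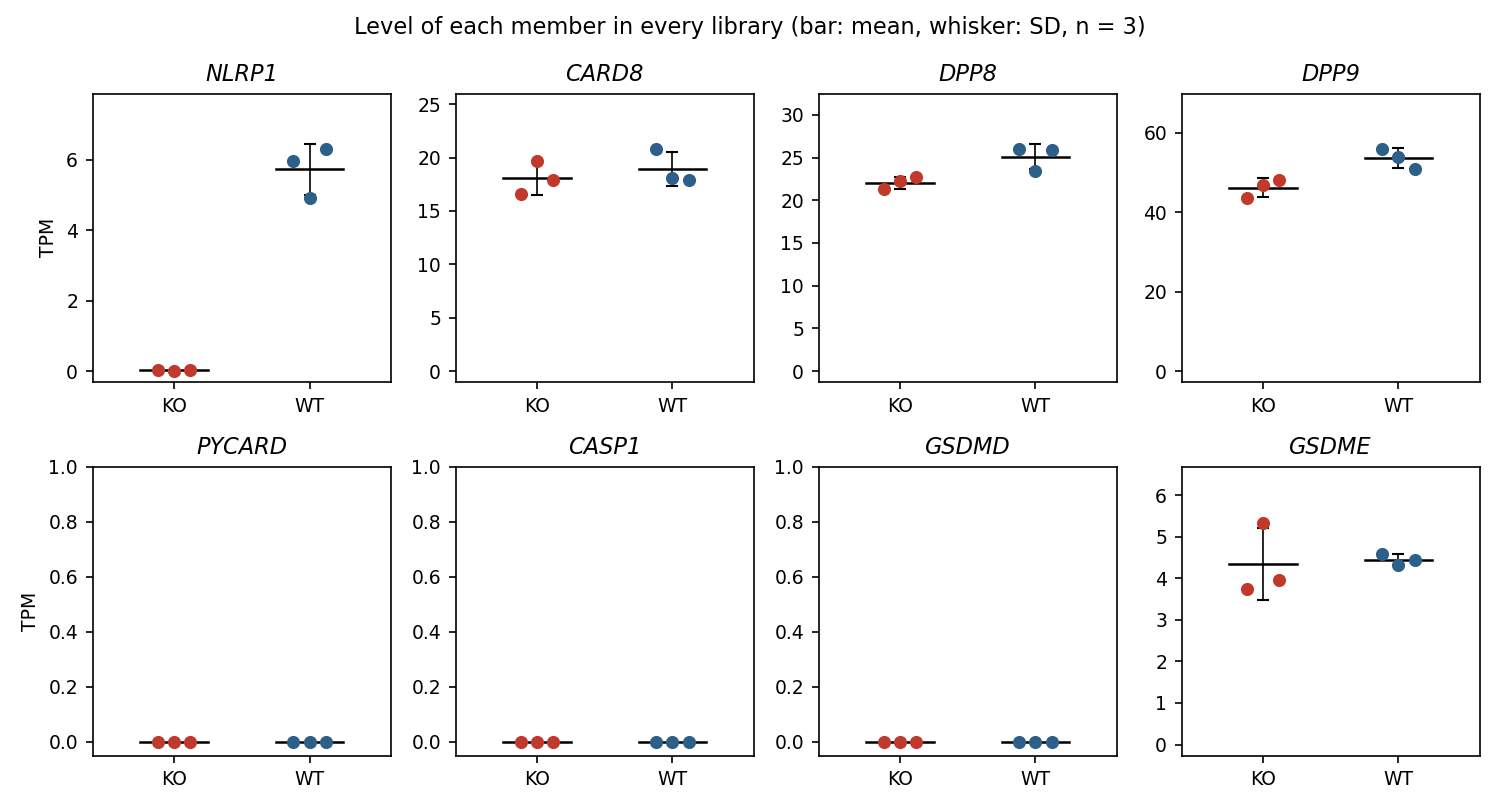
TPM of each of the 8 genes in every library, KO left of WT in each panel, with points for libraries and a bar with whisker for the mean and SD (n = 3 per group). NLRP1 lies at 0 to 0.036 TPM in KO and at 4.92 to 6.31 TPM in WT, while PYCARD, CASP1 and GSDMD lie at 0 throughout.

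Sequences of NLRP1 and CARD8 that bear on the readings are given 5′ to 3′ on the coding strand. The first pair shows where NLRP1-205, the transcript whose length equals the NLRP1 length deposited for 2 KO libraries, parts from NLRP1-201 at the 3′ end. The deposited length is 1 number for the whole gene and does not place a difference there. Lower case marks the end of the stretch of exon 16 that both share, and capitals mark what follows. Coordinates are GRCh38, minus strand, from GENCODE release 29. In NLRP1-205 exon 16 at chr17:5501737-5501872 is joined to exon 17 at chr17:5499427-5499950, and in NLRP1-201 exon 16 runs on over chr17:5501385-5501872.
NLRP1-205: ctgagtagaccgcagACTTTGTTGTCGCTG
NLRP1-201: ctgagtagaccgcagGTGGGTCTGAGAAAT
The first junction was found in 2 of the 17 annotated NLRP1 transcripts, NLRP1-205 and NLRP1-211, and the second stretch in NLRP1-201 alone.

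The second sequence is a STAT-type motif, shown because the knocked-out gene encodes a STAT factor. The palindrome TTCNNNGAA, which reads alike on both strands, was searched in RefSeq promoter windows (GRCh38.p14) of 300 bases, from 250 before to 50 after each annotated start. Windows were at hand for 5 of the 8 genes, 14 windows in all. NLRP1 and CASP1 were among the genes without a window, so neither was searched for the motif. The motif was in 2 overlapping CARD8 windows and in none of the other 4 genes, against 7.66% of all 35116 windows and 9.38% of 27305 genes. The CARD8 match lies at chr19:48255922-48255930 on the minus strand, 18 bases before a RefSeq start and at base 17 after another, and is in capitals in the stretch chr19:48255912-48255940.
CARD8: cttccctcagTTCTCAGAAagcccacctc
A match of letters is a description and says nothing of binding. The same bases lie within the span of the antisense gene CARD8-AS1.

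NLRP1 (ENSG00000091592.16, chr17:5499427-5619424, minus strand, hg38) is the sensor chosen for its near loss. Its estimated counts were 2.1, 0 and 1.03 in KO, against 244.75, 217.38 and 242.75 in WT. That is 0.114, 0 and 0.0571 CPM in KO and 13.8, 11.4 and 12 CPM in WT, so each KO library was below the level that 3 counts would give, and the groups were far apart. The rounded counts summed to 3 in KO and 705 in WT, a ratio of 0.434% after scaling, with a 95% counting interval of 0.0894% to 1.27%. Less NLRP1 RNA per cell and fewer cells with it cannot be told apart in bulk RNA.

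The estimated counts of NLRP1 were not whole numbers, and a second entry, ENSG00000286190.1, accounted for the fractions. This entry has no symbol and no position in the tables used here, and it was singled out after the values were seen. Its estimated counts were 124.9, 155.0 and 158.97 in KO and 124.25, 141.62 and 115.25 in WT. Added to NLRP1 they gave 127, 155 and 160 in KO and 369, 359 and 358 in WT, whole within 0.01 in all 6 libraries. Of 4491 genes with values that were not whole in at least 3 libraries, it was the 1 gene whose values did so with NLRP1. The sum over both entries was 442 counts in KO and 1086 in WT. The second entry alone was 7.88 ± 1.06 CPM in KO and 6.70 ± 0.929 CPM in WT (SD, n = 3 each), with groups that overlapped and an edgeR adjusted p of 0.253. The number of reads shared by both entries is not known. How they were divided may bear on the NLRP1 ratio, and its part was not tested.

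**Figure D2:**
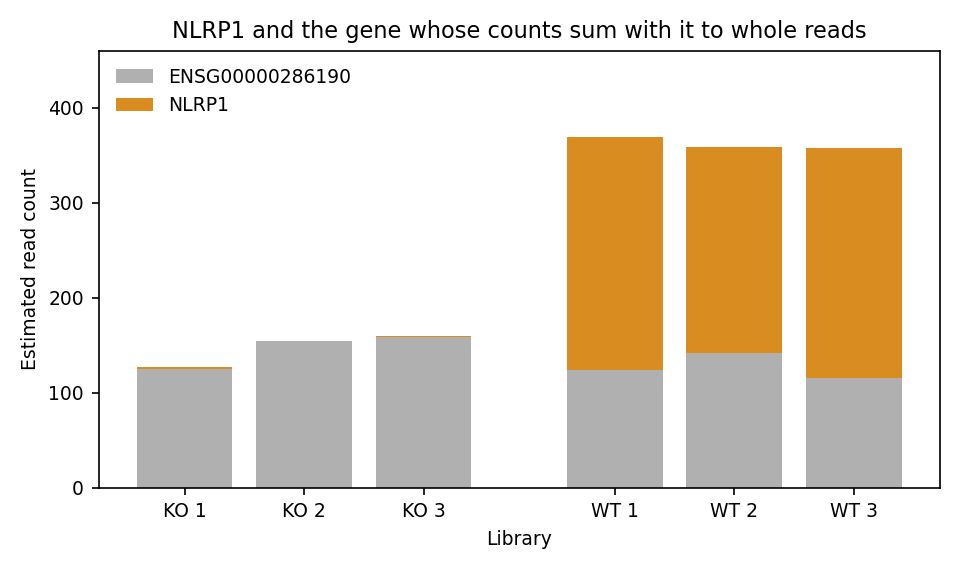
Estimated counts of NLRP1 and of ENSG00000286190.1 stacked in each library, KO left of WT. The stacks end at whole numbers, 127 to 160 in KO and 358 to 369 in WT, and NLRP1 is 0 to 2.1 of the KO stacks.

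The deposited length of a gene, a mean over its transcripts weighted by their estimated abundance, is given for NLRP1 as a description. It was 5281, 4071 and 5281 bases in KO, where the middle library had 0 counts, and 3920, 3893 and 3224 bases in WT. The value 5281 equals the length of NLRP1-205, a transcript annotated as a target of nonsense-mediated decay, in which exon 17 follows the junction printed above. It rests on about 2.1 and 1.03 counts, so no difference in transcripts can be read from it. The WT lengths lie below those of both NLRP1-205 and NLRP1-201 (5131 bases), and which annotation the authors used was not given in sources used here.

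CARD8 (chr19:48180770-48255946, minus strand), the second sensor of this kind, stayed present in KO. It had 22.8, 25.2 and 22.9 CPM in KO, against 27.5, 26.5 and 24.8 CPM in WT, and the groups overlapped. The means were 23.7 ± 1.34 CPM in KO and 26.2 ± 1.38 CPM in WT (SD, n = 3 each). The log2 fold change was −0.15 ± 0.069 (SE), with a 95% interval of −0.28 to −0.01 and an edgeR adjusted p of 0.149. This interval uses a normal curve and is narrower than the edgeR test implies, whose unadjusted p was 0.0533. With offsets for effective length it was 0.0071, of the opposite sign. Of the summed TPM of both sensors, CARD8 made up 99.8% in the first and 99.9% in the third KO library and all in the second, where NLRP1 was at 0, against 77.7, 78.6 and 74.0% in WT. The summed TPM was 16.6, 19.7 and 18.0 in KO and 26.7, 23.0 and 24.2 in WT, a gap that holds the chosen loss of NLRP1.

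CARD8 was also the gene whose deposited length separated the groups without having been chosen for it. The length was 2297, 2093 and 2187 bases in KO and 2351, 2558 and 2430 bases in WT, every KO library being shorter. Mean lengths were 2192 ± 102 bases in KO and 2446 ± 104 bases in WT (SD, n = 3 each). The two-sided exact permutation p was 0.1, the smallest that 3 against 3 libraries allow. Lengths of the groups did not overlap in 12.8% of 13122 tested genes whose length varied, and KO was the shorter group in 8.15%. DPP8, DPP9 and GSDME had overlapping lengths, with exact permutation p-values of 0.9, 0.6 and 0.7.

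**Figure D3:**
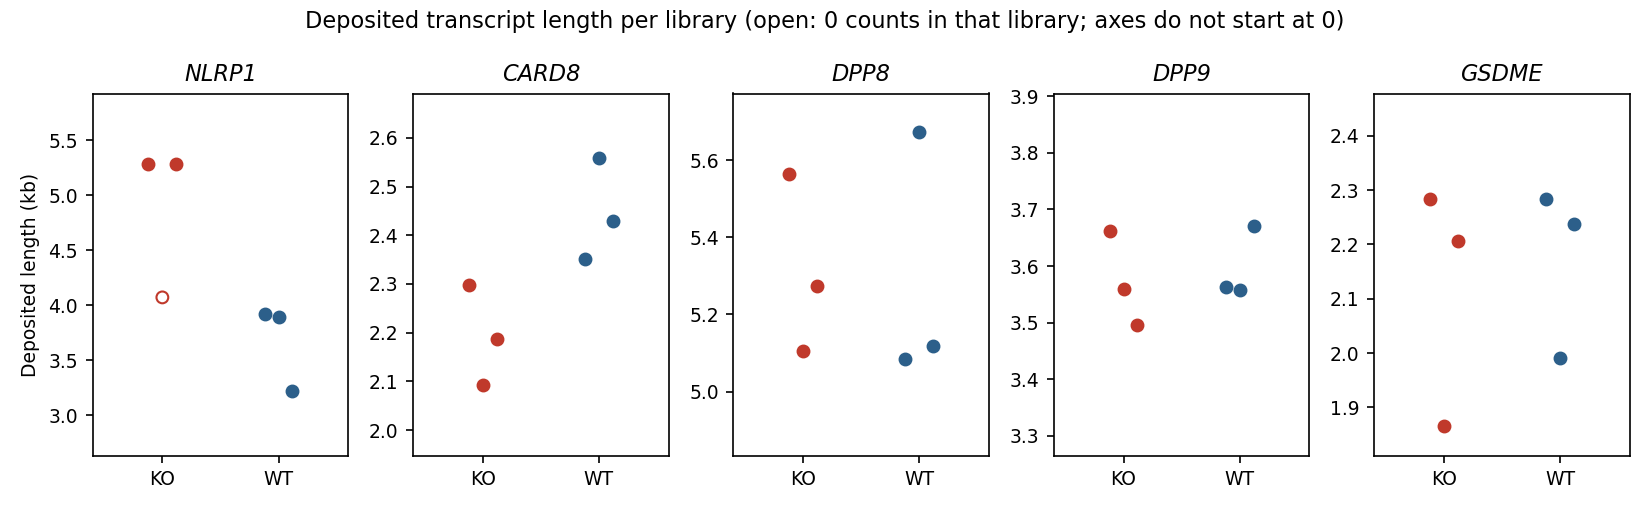
Deposited transcript length per library in kilobases for the 5 detected genes, KO left of WT, on axes that do not start at 0. CARD8 lies at 2093 to 2297 bases in KO and 2351 to 2558 bases in WT, and an open point marks the KO library with 0 NLRP1 counts.

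CARD8-AS1 (chr19:48255675-48258199, plus strand) overlaps the start of CARD8. Use of strand in counting was not given in sources used here, so reads of the pair cannot be told apart over the overlap. In the second KO library CARD8 had 524.65 and CARD8-AS1 44.35 estimated counts, which sum to 569. CARD8-AS1 had 2.11 to 3.03 CPM in KO and 2.20 to 2.62 CPM in WT, with an edgeR adjusted p of 0.879.

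Of the inhibitors, DPP9 was lower in KO, the 1 gene called of the 4 tested besides NLRP1. DPP9 (chr19:4675224-4724673, minus strand) had 93.8, 99.3 and 98.3 CPM in KO, against 111, 106 and 104 CPM in WT. All KO libraries were below all WT libraries, as for 18.7% of all genes tested. The DPP9 means were 97.2 ± 2.91 CPM in KO and 107 ± 3.22 CPM in WT (SD, n = 3 each). Its log2 fold change was −0.14 ± 0.039 (SE), with a 95% interval of −0.21 to −0.06 and an edgeR adjusted p of 0.0212. Of all 15958 genes tested, 11.4% were called lower in KO and 23.4% in either direction, so 1 of 4 is near the share over all genes. The call ended with offsets for effective length (adjusted p = 0.143), on log2(TPM + 1) (0.0639) and on log2(TPM + 0.1) (0.0643). The log2 fold change was −0.14 with the offsets and −0.21 on both TPM scales. The call also ended without the first WT library (0.103), without the second WT library (0.0563) and without the first KO library (0.0828).

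DPP8 (chr15:65442463-65517704, minus strand), the closest relative of DPP9, had 72.6, 71.1 and 71.7 CPM in KO, against 75.6, 76.3 and 76.1 CPM in WT. The groups did not overlap, as for 38.6% of all tested genes and, with KO lower, 18.7%. The log2 fold change was −0.083 ± 0.039 (SE), with a 95% interval of −0.16 to −0.01. That interval is also narrower than the edgeR test implies, whose unadjusted p was 0.055. The edgeR adjusted p was 0.153, and 0.128 to 0.374 over 15 alternatives, so DPP8 was not called in any of them. On both TPM scales its log2 fold change was −0.18.

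Taken as a pair, DPP8 and DPP9 summed to 68.3 ± 3.04 TPM in KO and 78.6 ± 2.86 TPM in WT (SD, n = 3 each). The groups did not overlap, with a two-sided exact permutation p of 0.1, the smallest possible. The share of all genes without overlap in TPM was not counted. Over all genes tested, the median log2 fold change was −0.0587 on log2(TPM + 1) and −0.0671 on log2(TPM + 0.1). The median tested gene was thus also slightly lower in KO on these scales, and its part in the sum was not tested. The ratio of DPP9 to DPP8 was 2.09 ± 0.0346 in KO and 2.14 ± 0.165 in WT (exact permutation p = 0.7), and these ranges overlapped.

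The steps below the sensors that pass through caspase-1 had no counts in either group. PYCARD (chr16:31201485-31203450, minus strand), CASP1 (chr11:105025443-105035250, minus strand) and GSDMD (chr8:143553207-143563062, plus strand) had 0 counts in each of the 6 libraries. PYCARD-AS1, which overlaps PYCARD on the other strand (chr16:31201885-31203452), had 2, 4 and 2 counts in KO and 3, 4 and 7 in WT. With no counts, no fold and no test can be given for these 3 genes, at a limit of 3 counts per library.

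GSDME (chr7:24698351-24758113, minus strand) was the gasdermin among the 8 genes with counts, 94, 130 and 93 in KO and 108, 96 and 119 in WT. It had 5.34, 6.24 and 5.31 CPM in KO, against 6.09, 5.03 and 5.86 CPM in WT, and the groups overlapped throughout. The means were 5.63 ± 0.528 CPM in KO and 5.66 ± 0.556 CPM in WT (SD, n = 3 each). The log2 fold change was −0.0028 ± 0.14 (SE), with a 95% interval of −0.28 to 0.27 and an edgeR adjusted p of 0.993. Its sign was not stable over the alternatives.

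Related genes, 91 in 6 lists, were read from the same fit. A symbol was matched for 90 of them, and 55 were tested. In KO, 7 were higher (12.7%) and 9 lower (16.4%), beside 12.1% and 11.4% of all genes tested. All p-values below are edgeR values adjusted over all tested genes, and CPM are means ± SD with n = 3 per group.

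Other sensors and NLR proteins gave no call. Of 22 genes, 9 were at 0 in all libraries, 8 had too few counts to test, and 5 were tested with a median log2 fold change of −0.027, beside 0.0063 over all genes. None of these 5 had an unadjusted p under 0.05 in edgeR, and limma-voom called 0. DESeq2 also called 0, but it gave no adjusted p for NLRP14 and NLRC5 and could not call them. The smallest p-values belonged to NLRP14 at −0.50 (adjusted p = 0.382), NLRC5 at −0.45 (0.422) and NOD1 at 0.13 (0.546). Single libraries moved these values, with NLRP14 at −0.097 without the third WT and −0.28 without the second KO library. NLRC5 was at −0.29 without the third WT and −0.28 without the third KO library, and NOD1 at 0.051 without the third and 0.20 without the first WT library. NLRP3, the best studied inflammasome sensor, had 3, 4 and 3 counts in KO and 0, 1 and 1 in WT and was not tested.

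Genes of the degradation and stress kinase steps upstream of NLRP1 were all tested, 16 of 16, with 2 higher, 4 lower and a median of −0.056. UBR2 and UBR4, ubiquitin ligases that recognise N-terminal degradation signals, were lower. UBR2 had 80.5 ± 1.71 CPM in KO and 96.6 ± 0.26 CPM in WT, a log2 fold change of −0.26 ± 0.038 (SE) with adjusted p = 1.98e-04. UBR4 had 274 ± 18.0 CPM in KO and 322 ± 23.4 CPM in WT, a log2 fold change of −0.23 ± 0.053 (SE) with adjusted p = 0.00596. The UBR2 call held in all 15 alternatives, whereas that of UBR4 ended with offsets for effective length (−0.15, adjusted p = 0.446) and on both TPM scales. PSMA1, a subunit of the proteasome core, was higher, at 176 ± 5.68 CPM in KO and 153 ± 2.92 CPM in WT (0.19 ± 0.035, adjusted p = 0.00122). That call ended on both TPM scales. PSMB1, another core subunit, was called higher at 0.11 ± 0.035 (adjusted p = 0.0355), a call that ended in 9 of 15 alternatives, DESeq2 (0.0767) and the omission of any library but the first KO library among them (0.0733 to 0.156). On both TPM scales PSMB1 was at 0.035. The proteasome subunits PSMB5 and PSMD1 were at −0.053 (adjusted p = 0.446) and −0.059 (adjusted p = 0.220). UBE2O, a ubiquitin-conjugating enzyme, was called lower at −0.14 ± 0.042 (adjusted p = 0.0259), a call that ended without the first or the third WT library or the first or the second KO library (0.0907 to 0.109). MAPK14, the stress kinase p38 alpha, was called lower at −0.12 ± 0.039 (adjusted p = 0.0479), a call that ended in 9 of 15 alternatives, DESeq2 (0.131) and the omission of any library but the third KO library among them (0.0828 to 0.145). MAP3K20, the kinase ZAK that phosphorylates NLRP1 after ribosome stress, had 76.1 ± 3.11 CPM in KO and 80.5 ± 4.01 CPM in WT (−0.083, adjusted p = 0.240), and −0.046 without the second WT library.

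In a list of proteins that bind, restrain or otherwise bear on NLR proteins, 15 of 16 were matched and 11 were tested. Of these, 4 were higher and 1 lower, with a median of 0.081. The 1 called lower was TXN, thioredoxin, which binds NLRP1, at 199 ± 6.92 CPM in KO and 219 ± 5.48 CPM in WT (−0.13 ± 0.035, adjusted p = 0.0132). Its call ended without the second WT library (0.0737) and without the first KO library (0.0648). BCL2L1, whose product BCL-XL binds NLRP1, had 30.2 ± 3.46 CPM in KO and 25.6 ± 1.29 CPM in WT (0.23 ± 0.079, adjusted p = 0.0476), a call that ended in 10 of 15 alternatives. Without the third KO library its log2 fold change was 0.14, with adjusted p = 0.194. XPNPEP1, an aminopeptidase that cuts before proline, had 80.7 ± 1.41 CPM in KO and 70.4 ± 1.11 CPM in WT (0.20 ± 0.040, adjusted p = 0.00276). Its log2 fold change shrank to 0.042 on log2(TPM + 1), with adjusted p = 0.828. TRIM33, a ubiquitin ligase, had 229 ± 10.1 CPM in KO and 205 ± 3.05 CPM in WT (0.16 ± 0.036, adjusted p = 0.00612). STUB1, the chaperone-linked ubiquitin ligase CHIP, had 158 ± 6.99 CPM in KO and 142 ± 5.78 CPM in WT (0.15 ± 0.041, adjusted p = 0.0175). The calls of TRIM33 and STUB1 ended on both TPM scales, and that of STUB1 also without the second WT, the third WT or the third KO library (0.0608 to 0.0874). CARD16, CARD18, PYDC1 and PYDC2, small proteins that compete for CARD or pyrin contacts, were at 0.

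The DPP4 family and related proline peptidases had 6 of 9 genes tested, with 1 higher, 0 lower and a median of −0.043. At an unadjusted p under 0.05, edgeR had 2 lower. At an adjusted p under 0.05, edgeR, DESeq2 and limma-voom each called 0 lower. DPP4, the surface peptidase that gives the family its name, had 10.5, 7.97 and 8.0 CPM in KO, against 5.53, 6.08 and 7.14 CPM in WT. All KO libraries were above all WT libraries, and groups did not overlap, in either direction, for 38.6% of all genes tested. The DPP4 log2 fold change was 0.49 ± 0.14 (SE), with adjusted p = 0.0219. The call ended in 7 of 15 alternatives, DESeq2 (adjusted p = 0.0533) and the omission of the first WT (0.096), the second WT (0.0733) or the first KO library (0.109) among them. DPP7, a lysosomal peptidase, had 2.53 ± 0.415 CPM in KO and 3.59 ± 0.364 CPM in WT (−0.50, adjusted p = 0.0892), and was called lower on both TPM scales (0.0227 and 0.0223). PREPL, a prolyl endopeptidase-like protein, had a log2 fold change of 0.084 (adjusted p = 0.10).

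Other caspases, gasdermins and the rupture protein NINJ1 had 8 of 12 genes tested, with 0 higher, 1 lower and a median of −0.021. At an unadjusted p under 0.05, edgeR had 1 higher. At an adjusted p under 0.05, edgeR, DESeq2 and limma-voom each called 0 higher. GSDMB, another gasdermin, had 2.04, 2.98 and 1.94 CPM in KO, against 5.36, 4.14 and 3.4 CPM in WT. All KO libraries were below all WT libraries, as for 18.7% of all genes tested. The GSDMB log2 fold change was −0.87 ± 0.23 (SE), with adjusted p = 0.0136. The call ended with offsets for effective length (−0.56, adjusted p = 0.243), on log2(TPM + 1) (−0.38, 0.221), on log2(TPM + 0.1) (−0.56, 0.231), without the first WT library (0.0813) and without the first KO library (0.0556). NINJ1 stood at 0.25 (adjusted p = 0.0944) and CASP9, the initiator caspase of the mitochondrial route, at 0.13 (adjusted p = 0.507). CASP9 was at 0.022 without the second WT library, 0.048 without the third KO library and 0.20 without the second KO library. CASP4 and CASP5, which sense lipopolysaccharide, and GSDMA and GSDMC were at 0.

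Interleukin-1 family ligands were all but absent, and 3 other genes of the list were lower. Of 16 genes 9 were tested, with 0 higher, 3 lower and a median of −0.064. At an unadjusted p under 0.05, edgeR had 1 higher. At an adjusted p under 0.05, edgeR, DESeq2 and limma-voom each called 0 higher. IL1A, IL1B and IL1RN were at 0. IRAK1, a kinase of the receptor complex, had 321 ± 15.2 CPM in KO and 395 ± 13.3 CPM in WT (−0.30 ± 0.038, adjusted p = 9.7e-05), a call held in all 15 alternatives. IL18BP, a secreted decoy for interleukin-18, had 5.75 ± 1.05 CPM in KO and 7.76 ± 0.186 CPM in WT (−0.43 ± 0.14, adjusted p = 0.036). TRAF6, the ubiquitin ligase next to IRAK1, had 40.4 ± 3.43 CPM in KO and 45.9 ± 0.836 CPM in WT (−0.18 ± 0.061, adjusted p = 0.0423). The calls of IL18BP and TRAF6 each ended in 9 of 15 alternatives, DESeq2 and the omission of the first or second WT or the first or second KO library among them, with adjusted p of 0.0701 to 0.163 without a library.

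**Figure D4:**
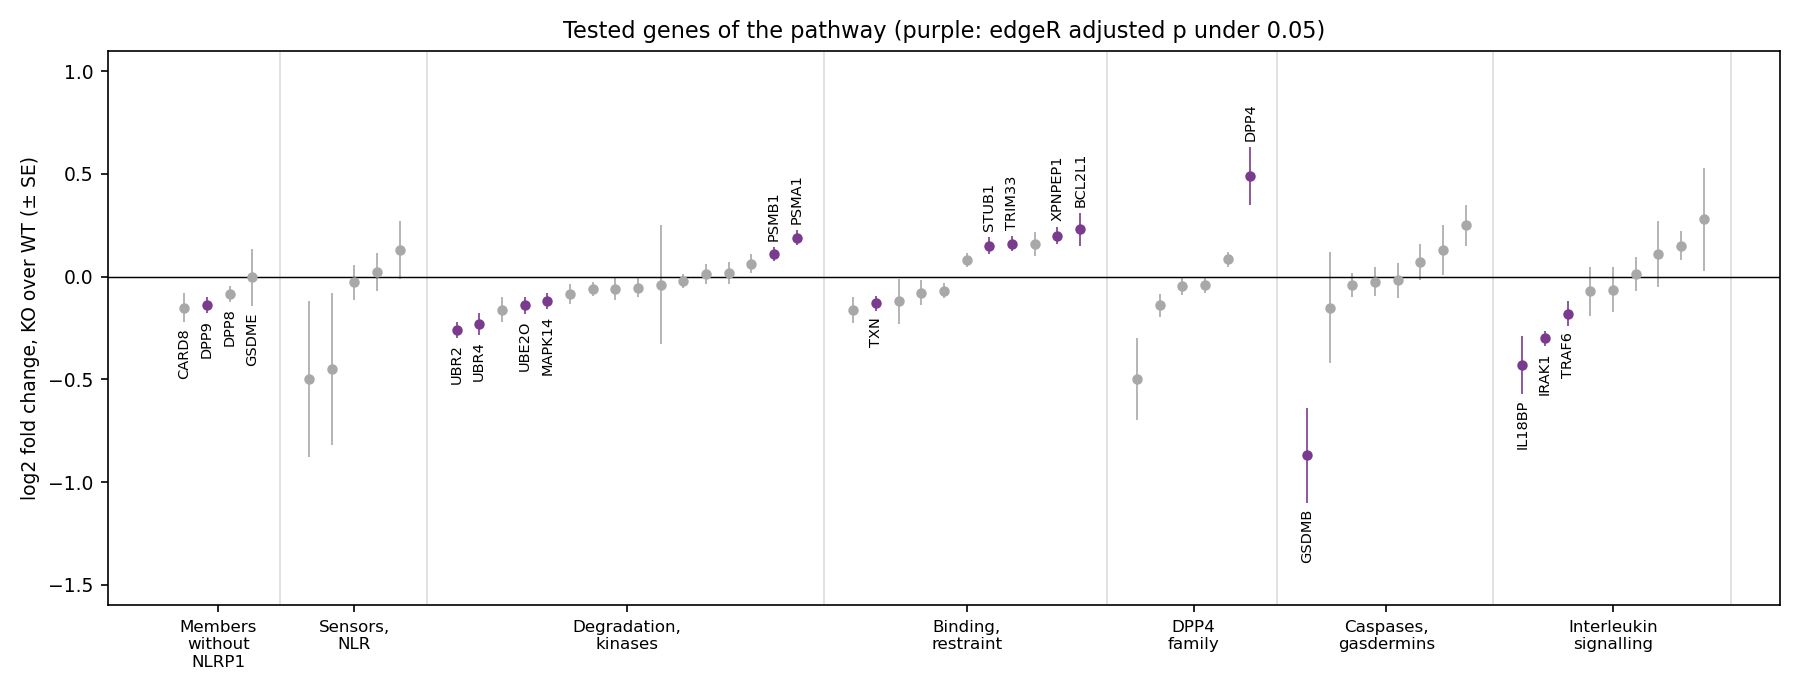
Log2 fold change, KO over WT, with SE for the 4 tested members besides NLRP1 and the 55 tested genes of 6 lists, each column sorted, with purple for an edgeR adjusted p under 0.05. DPP9 at −0.14 is the purple point among the members, and GSDMB at −0.87 and DPP4 at 0.49 lie farthest from 0 among the purple points.

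The tested genes around NLRP1 did not share its near loss, but most of them lie downstream of it. Of 32 tested genes that start within 1 Mb of the NLRP1 start, 10 were higher in KO, 2 were lower and 25 had a positive fold change, with a median log2 fold change of 0.13. Over all genes tested 12.1% were higher, 11.4% were lower and the median was 0.0063. DESeq2 called 8 of the 32 higher and 1 lower. The median was 0.14 over 12 genes within 0.5 Mb and 0.15 over 91 genes within 2 Mb. On the side before the NLRP1 start, the nearest tested gene was WSCD1, 438 kb away, at 0.04 (adjusted p = 0.633). Within 1 Mb on that side, PIMREG at −0.058 and PITPNM3 at −0.024 followed, and none of them was called. The stretch between the NLRP1 start and WSCD1 held no tested gene, so a loss confined to it would not be seen. C1QBP, a mitochondrial matrix protein that starts 171 kb away, had 668 ± 13.8 CPM in KO and 486 ± 11 CPM in WT (0.46 ± 0.032, adjusted p = 6.87e-07). MIS12, a kinetochore protein, was at 0.29 ± 0.043 (adjusted p = 3.26e-04). DERL2, a protein of endoplasmic reticulum quality control, was at 0.15 (adjusted p = 0.0671) and DHX33, a helicase, at −0.0035 (adjusted p = 0.953).

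Around DPP8, 7 of 25 tested genes within 1 Mb were higher and 0 lower, beside 12.1% and 11.4% of all genes tested. Of the 25, 18 had a positive fold change, with a median log2 fold change of 0.13. At an unadjusted p under 0.05, edgeR had 0 lower, and DESeq2 and limma-voom called 0 lower. DPP8 itself was at −0.083. HACD3, an enzyme of fatty acid elongation that starts 13 kb away, was at 0.19 ± 0.033 (adjusted p = 9.38e-04) and INTS14, an Integrator subunit, at 0.17 (adjusted p = 0.0149). Both calls ended on the TPM scales, and that of INTS14 also with effective-length offsets (0.0611) and without the first WT, second WT or the third KO library (0.0574 to 0.0715). IGDCC4 stood at 0.26 (adjusted p = 0.108), or 0.15 without the first KO library, and SLC24A1, a sodium, calcium and potassium exchanger, at −0.16 (adjusted p = 0.192).

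**Figure D5:**
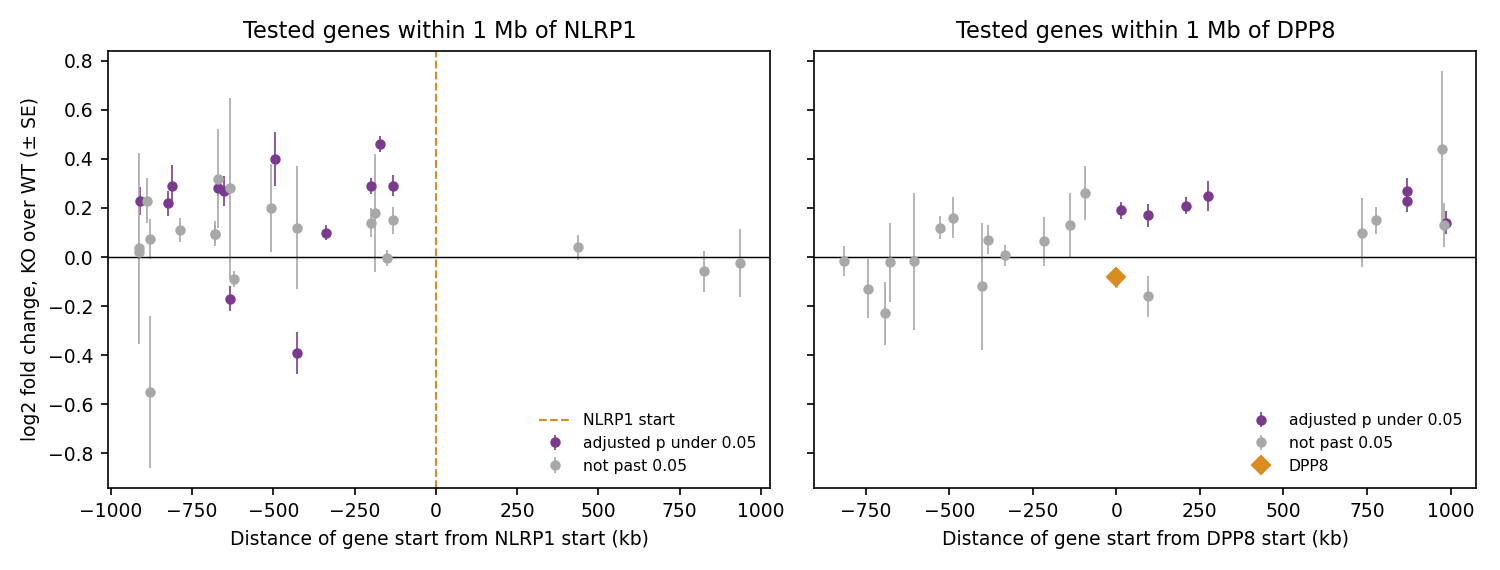
Log2 fold change, KO over WT, with SE for tested genes within 1 Mb of the start of NLRP1 and of DPP8, by distance in kilobases. The median is 0.13 in both windows, and DPP8 lies at −0.083.

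Genes with a pattern like that of NLRP1 were ranked by summed KO over summed WT counts after scaling, among 12462 named genes with at least 100 counts in WT, and NLRP1, which was chosen for this near loss, was the fourth lowest. NLRP1 and ENSG00000286190.1 together held 442 counts in KO and 1086 in WT. How many reads they shared is not known, and the part of their division in this place was not tested. SPARC, a secreted matrix protein, had 0, 1 and 0 counts in KO and 79, 77 and 96 in WT, 0.405% of the WT level (95% counting interval 0.0102% to 2.28%). CHODL, a membrane lectin, had 0, 0 and 1 counts in KO and 28, 53 and 40 in WT (0.844%, interval 0.0212% to 4.79%). KCNK2, a potassium channel, had 1, 0 and 1 counts in KO and 45, 55 and 44 in WT (1.42%, interval 0.17% to 5.22%). The small nuclear RNA 7SK ranked among them through 1 library, with 0 in KO and 0, 0 and 106.99 in WT. An MKKS entry (ENSG00000285508.1) had 0, 0 and 0 counts in KO and 39.04, 47.92 and 41.44 in WT, but it is 1 of 3 entries with that symbol, and together they held 889, 1133 and 879 counts in KO and 836, 829 and 946 in WT.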

How the data were processed

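The 8 genes were read from gene tables of 3 STAT5B knockout and 3 wild-type HEK293 samples, grouped by the genotype label. The submitters' processing notes name FastQC, fastp, DRAGEN, Picard and hg38. Per the file headers each table holds an estimated count, TPM, length and effective length (bases) for 60609 identifiers, of which 42005 had a symbol and 58502 a GENCODE release 29 position. Between 7.12% and 7.64% of deposited estimated counts had a fraction. The fractions were kept for the search of reads shared with NLRP1 (sums whole within 0.01) and rounded for count tests. The authors' TPM, which sum to 1000000, gave levels between genes.

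Tests came from edgeR 4.0.16 (R 4.3.3), by quasi-likelihood over 15958 genes that passed filterByExpr (minimum count 10, minimum total 15), scaled by TMM and adjusted by Benjamini-Hochberg at 0.05. It was tested on simulated data, and its biological coefficient of variation was 4.43%. No library was taken for a copy of another, as chi-square per degree of freedom within groups was 2.45 to 7.50. Lengths and sums of TPM were compared by exact permutation over libraries. Genes were refitted with RLE factors, with DESeq2 1.42.0, with voom and log2(TPM + 1) or log2(TPM + 0.1) in limma 3.58.1, unfiltered, at 1 CPM in 3 libraries, with effective-length offsets, with a replicate block, and without each library. The interval of the NLRP1 count ratio covers counting error only. Intervals of log2 fold changes were set from the SE with a normal curve and are narrower than the edgeR test implies.

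The members, lists and rule were chosen with earlier results of these data known. The rule named all members, STAT5B, from each list up to 3 tested genes with the smallest p and every called gene where at most 5 were called, the 5 lowest ratios of KO to WT counts, and the 4 nearest tested neighbours of NLRP1 and of DPP8. NLRP3, MAP3K20, PSMB1, PSMB5, PSMD1, UBE2O, MAPK14, NEFM, VIM, EYA1, SALL1, WSCD1, PIMREG, PITPNM3 and genes listed at 0 were added after their values were seen. Some genes of the lists are not reported here.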

Additional observations from a re-analysis of the deposited data

How the results depend on the processing

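Calls over all genes numbered 3742, against 1734 with offsets for effective length, 1623 on log2(TPM + 1) and 1622 on log2(TPM + 0.1), and 2618 to 3575 with a library left out. Members called other than NLRP1 were 1, and 0 under those 3 settings, with 0 to 1 when a library was left out. Called genes of the lists were 16, and 8, 8 and 8 under the same 3 settings, with 8 to 15 when a library was left out. The median log2 fold change around NLRP1 was 0.13, with 0.060 and 0.087 on the TPM scales and 0.10 to 0.17 with a library left out. Around DPP8 it was 0.13, with 0.028 and 0.029 on the TPM scales and 0.099 to 0.16 with a library left out. On the TPM scales the median of all genes was −0.0587 and −0.0671. The length difference, KO minus WT, had no stable sign for DPP8 (23 bases, −102 to 213 with a library left out), DPP9 (−24, −69 to 14) and GSDME (−52, −142 to 74), and stayed negative for CARD8 (−254, −306 to −198). The log2 fold change turned positive for CARD8 with effective-length offsets (0.0071), and for GSDME with limma-voom (0.0036), with those offsets (0.037) and in 4 of 6 fits without a library (−0.087 to 0.048). It turned negative for NOD1 with those offsets (−0.11) and on the TPM scales (−0.14 and −0.18), and for PREPL on the TPM scales (−0.034 and −0.034). DHX33 was at 0.0089 without the first KO library and at −0.014 to 0.0089 over the fits without a library. The cause was not tested. The correlations of same-numbered libraries were −0.02, 0.118 and 0.035, and those of the other KO and WT pairs were −0.086 to 0.049. So few values cannot show whether the numbers mark pairs. With the replicate number as a block, 3660 genes were called. Among 38 genes followed through the alternatives, the block ended the calls of STAT5B (adjusted p = 0.0554) and MAPK14 (0.0758) and no other. The cell type markers were not among these genes. The stricter filter gave no value for NLRP14 and NLRC5. Fits that leave 2 libraries in a group assume that they vary like the others.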
